A study of Mus musculus with 8 samples.

Results

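Ndnf (ENSMUSG00000049001.5) was examined as 1 gene of the 55385 in the count files, 22545 of which had enough reads to be tested. It was chosen by its readout, as an abundant mRNA with lower levels in lungs after tracheal occlusion (TO) than in control lungs, so the difference between the groups is given here as a description without a test. The RNA came from whole E18.5 lungs of C57BL/6 mice, 4 from control and 4 from TO fetuses, and no transgene or other allele is named for either group. In the TO fetuses a suture passed through the uterine wall closed the trachea earlier in gestation, together with a carotid artery and a jugular vein on one side, and progesterone was given to the dams on the day before collection. The control fetuses are named only as controls, so the closure of the airway cannot be told apart from that of the vessels. Nothing in the labels says whether lungs came from separate litters, so they may not be independent of each other. The spread between libraries may also be partly technical.

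Ndnf encodes neuron-derived neurotrophic factor, a secreted glycoprotein with fibronectin type III domains that was named for its effect on neurons in culture. It binds glycosaminoglycans such as heparan sulfate and dampens signaling by fibroblast growth factors (FGFs), and human loss-of-function variants are linked to hypogonadotropic hypogonadism with a failure of neurons to reach the brain. In the fetal lung, FGF ligands made by the mesenchyme act through receptors on the epithelium and drive branching. Bulk RNA does not show which cells made Ndnf, and fewer cells of a type cannot be told apart from less RNA per cell.

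In GRCm38 the gene lies on the forward strand at chr6:65671590-65712326, and GENCODE M21 places 0 other genes across it. Its coding transcript has 4 exons and 10101 bases. The open reading frame of 1707 bases, stop codon included, begins at the second base of exon 2 and ends in exon 4. Exon 4 alone holds 91.8% of the transcript, most of it untranslated, so most read pairs counted for Ndnf can come from that exon. The coding part of exon 2, at chr6:65696040-65696227, is shown to fix the identity of the transcript counted, with the start codon in capitals:
Ndnf coding start: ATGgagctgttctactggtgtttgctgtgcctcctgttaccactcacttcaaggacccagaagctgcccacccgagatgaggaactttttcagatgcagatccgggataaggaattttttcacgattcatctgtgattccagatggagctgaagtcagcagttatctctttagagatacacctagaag

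Libraries are named here by group and replicate number, from control 1 to TO 4. Between 22822261 and 35002061 read pairs were counted on genes in 7 of them, and 270078 in TO 1. TO 1 also held far more RNA of thymocytes and skeletal muscle than the rest. The summed level of the 6 thymocyte genes tested was 393 CPM, read pairs scaled to a common library total, there and 1.92 to 20.3 CPM in the other libraries, and that of 8 skeletal muscle genes was 2757 CPM against 22.5 to 308 CPM. The difference of Ndnf and the median of each gene list are therefore given with and without TO 1.

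Ndnf was an abundant mRNA in all 8 lungs, and its level differed more among the control lungs than between the group means. Controls 1 to 4 had 447, 463, 201 and 353 CPM, in that order. TO 1 to 4 had 162, 297, 212 and 262 CPM. Controls 1, 2 and 4 were above every TO lung, whereas control 3 was below TO 2, TO 3 and TO 4, so the groups overlapped.

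**Figure D1:**
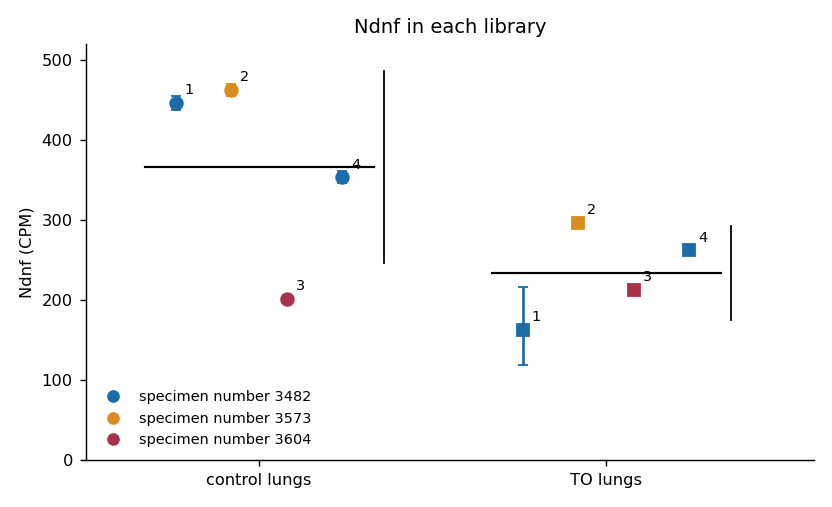
Ndnf level in CPM on a linear axis in the 4 control and 4 TO lungs, numbered by replicate. Colours give the digits in the library's name, called a specimen number here. Small bars are 95% counting intervals, horizontal lines are group means and the vertical line beside each group is the mean ± SD; control 3 sits at 201 CPM, within the range of the TO lungs.

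These levels rested on 5138 to 14245 Ndnf read pairs in 7 libraries, which gave narrow intervals for counting error, such as 196 to 207 CPM (95%, exact Poisson) in control 3 and 206 to 218 CPM in TO 3. In TO 1 only 47 read pairs were counted on Ndnf, with an interval of 119 to 216 CPM. From high to low the order was control 2, control 1, control 4, TO 2, TO 4, TO 3, control 3 and TO 1. The intervals of the 3 lowest libraries overlapped, and those of control 2 and control 1 all but touched. The reads carry no molecular identifiers, so these intervals cover counting error only.

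Per length, Ndnf was at 34.9 to 45.8 RPKM, which is CPM divided by the exon length in kilobases, in controls 1, 2 and 4. Control 3 had 19.9 RPKM and the TO lungs 16.0 to 29.3 RPKM. By CPM it was ranked 258 to 1114 of 22545 genes in the 8 libraries, and per length 887 to 3207. Its long transcript thus moved it down the order of genes, and in both orders the highest rank was in control 2 and the lowest in TO 1.

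The mean was 366 ± 120 CPM in control lungs and 233 ± 58.7 CPM in TO lungs (SD, n = 4 each), or 63.7% of the control mean. The difference of 133 CPM was close to the SD of the control lungs alone. On the log2 scale the fitted change was -0.62 (SE 0.25), and -0.51 (SE 0.26) without TO 1. Of the 472 genes with a mean CPM at least as high as that of Ndnf, 1 had a lower fitted change, Thbs1 at -0.73. Thbs1 encodes the matricellular protein thrombospondin 1 and is named after its value was seen. Since Ndnf was chosen as an abundant gene lower in TO, its place in this order follows from that choice. The median fitted change over all 22545 genes was -0.018.

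The size of the difference depended on single lungs. Without control 3 the fitted change was -0.81 (SE 0.18) and the TO mean was 55.4% of the control mean, without TO 2 it was -0.75 (SE 0.28), and without control 2 it was -0.49 (SE 0.27). The study's own figure of its mouse RNA data shows controls 1, 2 and 4 with TO 2, TO 3 and TO 4, and no reason is given for the other libraries being absent. In these 6 lungs Ndnf averaged 421 ± 59.2 CPM in control and 257 ± 42.5 CPM in TO lungs (SD, n = 3 each), and the fitted change was -0.71 (SE 0.15). Here the TO lungs were all below the control lungs, which was also so for 5.82% of the 21859 genes tested in these libraries. Over all 8 lungs that share was 1.3% of genes, and Ndnf was not among those genes.

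The library names carry digits, called a specimen number here, that the labels do not explain. It is 3604 for control 3 and TO 3, 3573 for control 2 and TO 2, and 3482 for the other 4 lungs. Within 3604 the control lung had 201 CPM of Ndnf and the TO lung 212 CPM, a log2 difference of 0.076 (TO minus control). Within 3573 the control lung had 463 CPM and the TO lung 297 CPM, a log2 difference of -0.64. Within 3482 the 2 control lungs, at 447 and 353 CPM, were both above the TO lungs, at 162 and 262 CPM. So both lungs numbered 3604 were low, and the lower level in TO was seen only within the other 2 numbers. With 1 control and 1 TO lung in 3604 and in 3573, differences between specimen numbers had no test, and what the number stands for was not tested.

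**Figure D2:**
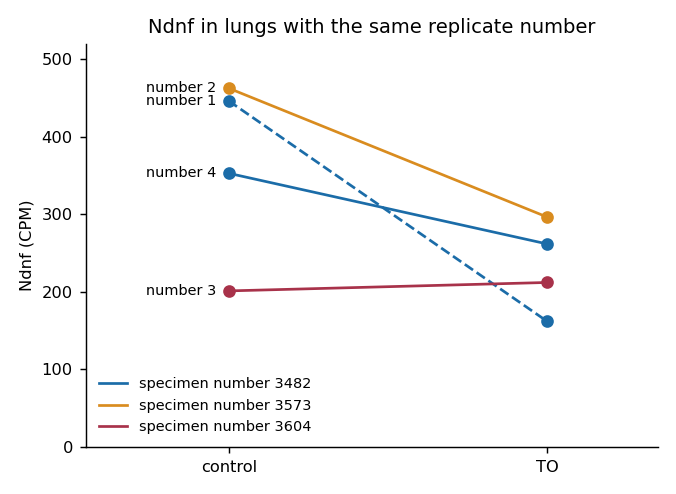
Ndnf level in CPM on a linear axis, with a line from the control lung to the TO lung of each replicate number, coloured by specimen number; the dashed line ends in TO 1, the shallow library. Lines fall for numbers 1, 2 and 4 and are nearly level, from 201 to 212 CPM, for number 3.

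The fitted change of Ndnf was below 0 under all 21 alternative settings, which include other tools, filters and scalings, each library left out and blocks for the replicate or specimen number, and ranged from -0.81 to -0.33. The value nearest to 0, -0.33 (SE 0.15), came from the 7 deep libraries with the replicate number as a block. All these values lie within 1 pooled SD of the log2 levels within groups, 0.48, of the value given above. Since the gene was selected for being lower in TO, its direction in the same lungs is no independent evidence.

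**Figure D3:**
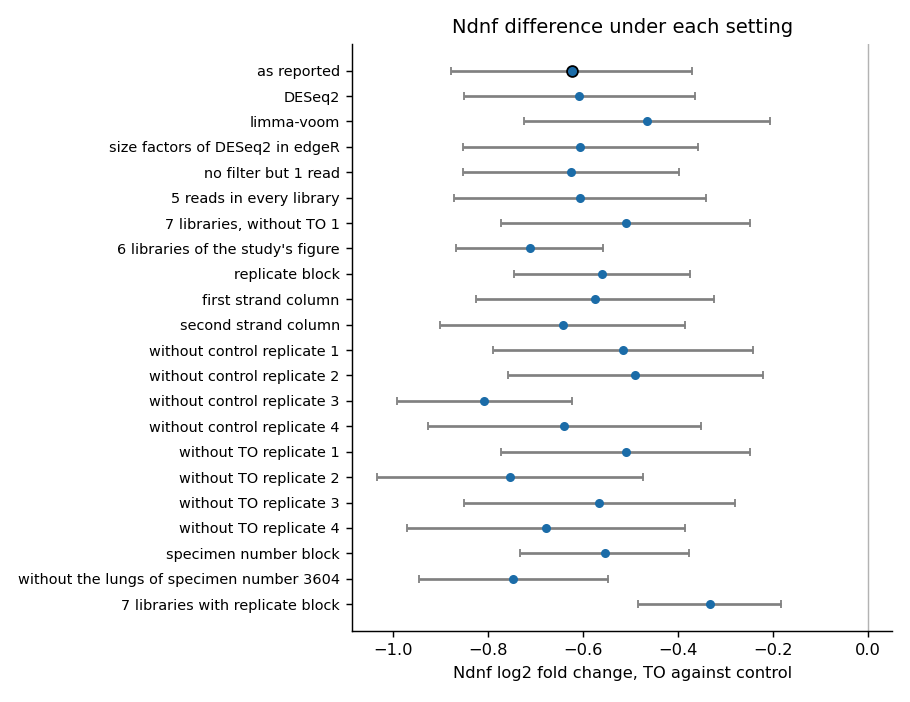
Fitted log2 fold change of Ndnf, TO against control, on the x axis for each setting on the y axis, with bars of 1 standard error and the black point for all 8 libraries. Points run from -0.81 without control 3 to -0.33 in 7 libraries with a replicate block, all to the left of 0.

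Across the whole table, edgeR's quasi-likelihood test called 0 of 22545 genes (0%) between TO and control lungs at an adjusted p under 0.1. At an unadjusted p under 0.05 there were 530 genes, of which 207 were lower in TO. DESeq2 called 7 genes and limma-voom 0. With the replicate number as a block edgeR called 3, which were Myh3 and Myh8, skeletal muscle myosins whose highest value was in TO 1, and Lcn2, a secreted iron-siderophore binding protein, at a log2 fold change of 1.55 (SE 0.23, adjusted p = 0.095). These 3 genes are named after their values were seen.

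The neighbour Tnip3 had its lowest value among the deep libraries in control 3, as Ndnf did. Tnip3, an inhibitor of NF-kappaB signaling 37549 bases upstream, was at 5.48, 7.25, 1.88 and 6.18 CPM in controls 1 to 4 and at 0, 5.85, 5.45 and 5.51 CPM in TO 1 to 4. Over the 7 deep libraries it had an r of 0.65 and a rho of 0.79 with Ndnf, as a description. Its fitted change of 0.015 (SE 0.44, edgeR adjusted p = 1.0) changed sign between settings.

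Genes with a pattern like that of Ndnf were sought over the 7 deep libraries, among 10580 protein-coding genes with a mean of at least 10 CPM, by Pearson's r of log2 CPM. Ndnf varied 2.30-fold between its highest and lowest library, and 11.1% of these genes varied more. Of the 10580 genes, 243 (2.30%) had an r of 0.9 or more and 130 (1.23%) an r of -0.9 or less, with a median r of 0.076. The points share library preparation, depth and tissue composition, and genes are not independent of each other, so these values describe the 7 libraries.

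The 8 genes most like Ndnf were Ajuba, Scaf8, Park7, Lasp1, 2810006K23Rik, Samd10, Pcbp1 and Prpf38a, with r from 0.97 to 0.99 and Spearman's rho from 0.93 to 1 (n = 7 libraries). Ajuba is a LIM domain scaffold of cell junctions that also acts in the Hippo pathway, and Lasp1 binds actin. Park7 encodes DJ-1, a protein that protects against oxidative stress, whereas Scaf8, Pcbp1 and Prpf38a act on RNA. Ajuba, the closest, was at 107, 111, 78.6 and 101 CPM in controls 1 to 4 and at 93.0, 76.3 and 84.9 CPM in TO 2 to 4. Among these 7 libraries it had its lowest values in TO 3 and control 3, as Ndnf did. Its 1.46-fold range was narrower than that of Ndnf, and the ranges of the 8 genes ran from 1.14-fold for Scaf8 to 1.95-fold for 2810006K23Rik.

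The 4 genes most opposed to Ndnf were Chmp4c, Rgs4, Sod2 and Cdkn1a, with r of -0.97 for each and rho from -1 to -0.93. Chmp4c is a subunit of the ESCRT-III membrane-cutting complex, Rgs4 a regulator of G protein signaling and Sod2 the mitochondrial superoxide dismutase. Cdkn1a encodes the cyclin-dependent kinase inhibitor p21. It was at 19.1, 16.4, 53.4 and 20.5 CPM in controls 1 to 4 and at 28.1, 38.9 and 29.8 CPM in TO 2 to 4. Its order of the libraries was exactly the reverse of that of Ndnf, with control 3 highest.

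**Figure D4:**
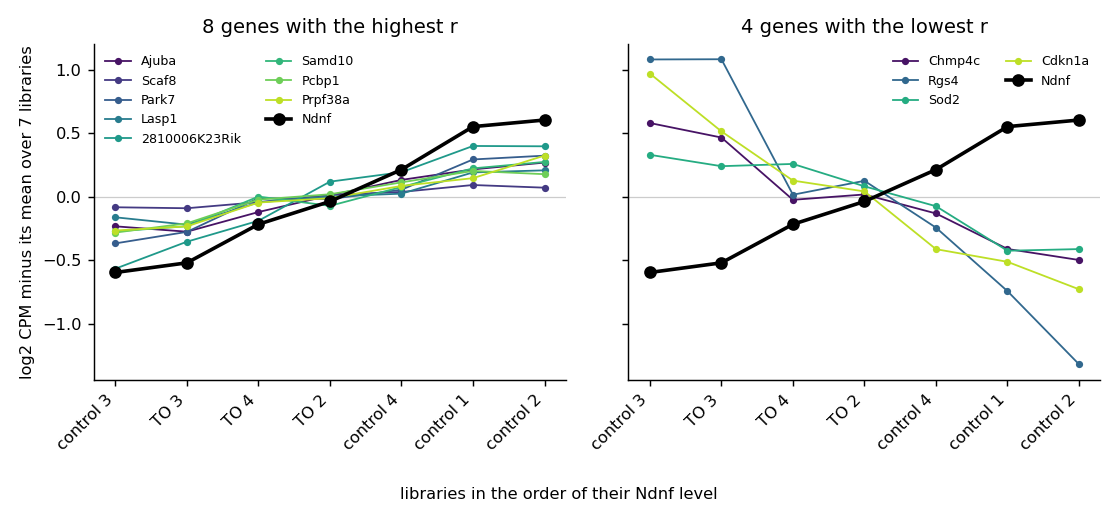
Level of each gene in the 7 deep libraries as log2 CPM minus the gene's mean over them, with libraries along the x axis in the order of their Ndnf level and Ndnf as the thick black line. The 8 genes on the left rise with Ndnf over smaller ranges, and the 4 on the right fall, with Rgs4 spanning 5.29-fold.

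These 12 genes were chosen for their r over the same 7 libraries, so its values in subsets of them are largely set by that choice and are given only as a description. After the group means were taken out, r was 0.97 to 0.99 for the 8 genes and -0.98 to -0.96 for the 4. Without controls 1 and 2, the libraries farthest from the median of Ndnf, it was 0.93 to 0.99 and -0.96 to -0.93 (n = 5). Without both lungs numbered 3604 it was 0.92 to 0.98 and -0.996 to -0.91 (n = 5). In TO 1, which the choice did not use, the 8 genes were divided. Ajuba, Scaf8 and Samd10 were at their lowest there, as Ndnf was, at 75.9, 58.7 and 3.45 CPM. Pcbp1 was at 252 CPM, close to its highest level, and 2810006K23Rik at 17.3 CPM, its highest. Since 1 read pair in TO 1 was worth 3.45 CPM, Samd10 rested on 1 read pair and 2810006K23Rik on few. Ajuba was barely below its 76.3 CPM in TO 3. Such low counts leave the places of these genes in TO 1 uncertain. With TO 1 included, 1 of the 8 genes stayed among the 100 most like Ndnf. On reads of one strand alone 3 or 4 of the 8 did, although this library kit does not mark strand.

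Gene lists of Ndnf's known partners and of lung cell types were compared with it in the same way. In all, 20 lists held 217 genes, 215 of them tested. By edgeR 0 of these 215 were called between TO and control lungs, against 0% of all genes. By limma-voom 0 of 215 were called, and by DESeq2 0 of the 201 to which it gave an adjusted p. With the replicate number as a block edgeR called 2, the myosins Myh3 and Myh8 given above. At an unadjusted p under 0.05 edgeR had 15 of the 215, against 530 of all 22545 genes. Without TO 1 it had 8, against 451 of 22539 genes. Of the 15 genes, 12 were skeletal muscle or thymocyte genes. The other 3 were Tgfbi and Akap5, an anchoring protein listed for alveolar type 1 cells, with fitted changes of -0.60 (SE 0.19) and -0.59 (SE 0.21), and Mmrn1, listed for lymphatic endothelium, at 0.64 (SE 0.27). Akap5 and Mmrn1 are named after their values were seen.

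FGF ligands, receptors and feedback genes had no common direction. Of 21 genes, 7 had a fitted change above 0 and 14 below, with a median of -0.074 in the 8 libraries, -0.031 without TO 1 and -0.0042 in the 6 of the study's figure. Fgfr2, the main FGF receptor of lung epithelium, averaged 425 ± 34.9 CPM in control and 375 ± 84.1 CPM in TO lungs (SD, n = 4). Etv5, a transcription factor induced by FGF signaling, averaged 316 ± 70.4 CPM in control and 263 ± 79.8 CPM in TO lungs. Fgfr3, another receptor, averaged 244 ± 10.4 CPM and 201 ± 24.2 CPM, and none of these 3 passed the test.

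Against Ndnf the FGF list spread from one end of the scale to the other, with a median r of -0.0086. Etv5 was the closest, with an r of 0.90 and a rho of 0.96, and was low in control 3 and TO 3 (213 and 235 CPM) where the other deep libraries had 294 to 362 CPM. The receptor gene Fgfr1 had an r of -0.76. Fgf10, the mesenchymal ligand that drives branching, had an r of -0.64, and Fgf9, a ligand of mesothelium and epithelium, an r of 0.83 at a mean of 6.27 CPM in control lungs. Etv5 is named by the rule for abundant members, and the other 3 after their values were seen.

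The 17 genes of heparan sulfate proteoglycans and their enzymes were spread likewise, with 7 fitted changes above 0 and 10 below, a median of -0.070 (-0.043 without TO 1) and a median r with Ndnf of -0.30. The 3 most abundant were Hspg2, the basement membrane proteoglycan perlecan (log2 fold change -0.17, SE 0.16), Ndst1, which sulfates the chains (-0.077, SE 0.12), and the glypican Gpc3 (-0.14, SE 0.15). The sulfatases Sulf1 and Sulf2, which remove sulfate groups from heparan sulfate outside the cell, had r of -0.79 and -0.80 with Ndnf. At the other end of the list Ext1 had an r of 0.73, and 7 of the 17 genes had an r above 0. Sulf1, Sulf2 and Ext1 are named after their values were seen.

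Cell cycle genes were the list closest to Ndnf. Each of the 12 had an r between 0.79 and 0.88 with it over the 7 deep libraries, with a median of 0.84. Their summed level was 2062, 1652, 530 and 1652 CPM in controls 1 to 4 and 1094, 533 and 1672 CPM in TO 2 to 4. Control 3 and TO 3 were thus low for cell cycle genes as for Ndnf, and the summed level had an r of 0.85 and a rho of 0.64 with Ndnf, or an r of 0.86 without the 2 farthest libraries. Without both lungs numbered 3604 the r was 0.53 and the rho 0 (n = 5), so the relation rested on them. TO 1 was again an exception, with 1956 CPM of cell cycle RNA and the lowest Ndnf level.

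The proliferation marker Mki67 averaged 458 ± 197 CPM in control and 357 ± 182 CPM in TO lungs, the DNA topoisomerase Top2a 313 ± 149 and 311 ± 179 CPM, and the replication helicase subunit Mcm6 121 ± 55.2 and 136 ± 55.7 CPM (SD, n = 4). None passed the test. The median fitted change of the list was -0.30, and -0.43 without TO 1. It was -0.58 without control 3, -0.0077 without TO 3 and -0.70 in the 6 libraries of the study's figure. The groups overlapped widely, with control 4 and TO 4 at nearly the same summed level while Ndnf was at 353 and 262 CPM in them.

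Interferon response genes were the reverse. Each of the 12 had a negative r with Ndnf, from -0.93 to -0.58, and their summed level was 126, 168, 361 and 146 CPM in controls 1 to 4 and 122, 663 and 227 CPM in TO 2 to 4. The highest levels were in TO 3 and control 3. The r of the summed level was -0.78 (rho -0.64), and -0.86 without the 2 farthest libraries. Without both lungs numbered 3604 it was -0.40 (rho -0.10, n = 5), so this relation too rested on them. All 12 genes had fitted changes above 0, with a median of 0.79, which was 0.89 without TO 1 and 1.72 in the 6 libraries, but -0.15 without TO 3, so its direction rested on that lung. Stat2, a transcription factor of the interferon response, had a fitted change of 0.47 (SE 0.33), Oasl2, an interferon-induced antiviral protein, one of 0.54 (SE 0.62), and Bst2, which tethers viruses to the cell surface, one of 0.38 (SE 0.34).

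Hypoxia response genes were opposed to Ndnf as well, with r from -0.84 to -0.52 for all 12. Their summed level was highest in control 3, at 4247 CPM, and in TO 3, at 2795 CPM, while the other libraries had 1697 to 2302 CPM. The r of the summed level was -0.78 (rho -0.82), and -0.71 without the 2 farthest libraries. It was -0.35 (rho -0.50, n = 5) without both lungs numbered 3604, so it rested on them. Of the 3 most abundant, the fitted change was -0.11 (SE 0.32) for the vascular growth factor Vegfa, -0.18 (SE 0.22) for the lactate dehydrogenase Ldha and -0.25 (SE 0.36) for the glycolytic aldolase Aldoa. The median of the list changed sign with control 3, from -0.30 in the 8 libraries and -0.25 without TO 1 to 0.19 without control 3 and 0.24 in the 6 of the study's figure, and its part in the level of Ndnf was not tested.

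Cardiac muscle genes, which mark myocardium from the pulmonary veins or heart in a lung sample, had a median r of -0.82. Their summed level was lowest in controls 2 and 1, at 579 and 824 CPM, where Ndnf was highest, and 2591 to 6718 CPM in the other deep libraries. TO 1 had 8360 CPM. The r of the summed level was -0.83 (rho -0.75), but -0.29 without controls 1 and 2, so this relation rested on them. It did not rest on the lungs numbered 3604, since the r was -0.90 (rho -0.90, n = 5) without both of those. The median fitted change was 0.89, and 0.65 without TO 1. The cardiac myosin Myh6 averaged 948 ± 850 CPM in control and 1347 ± 234 CPM in TO lungs (SD, n = 4), and the sarcomere genes Actc1 and Myh7 also had overlapping groups. The part of muscle carried along in differences of Ndnf was not tested.

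**Figure D5:**
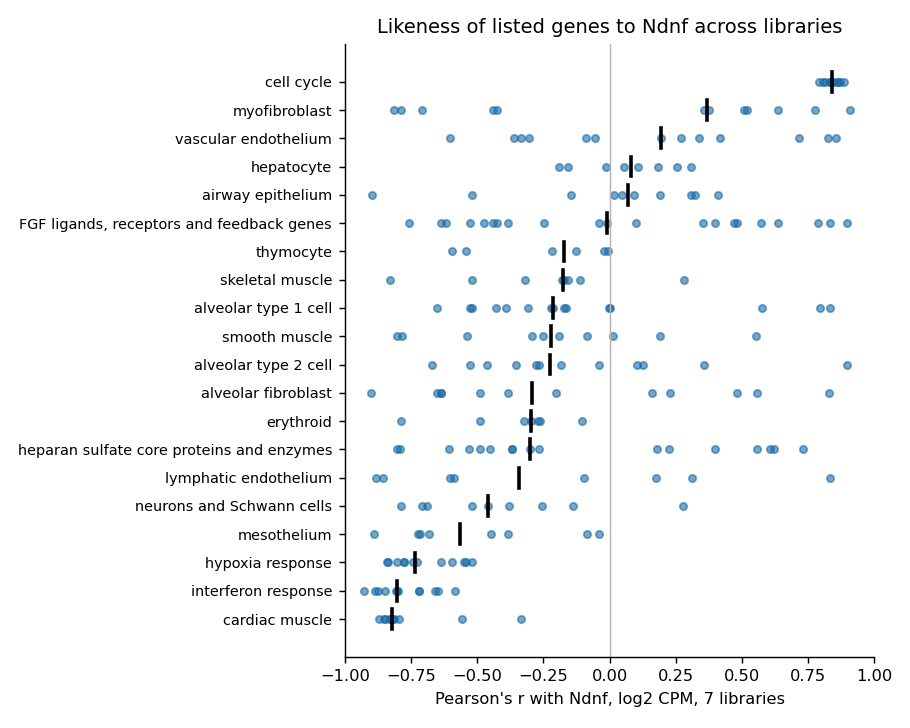
Pearson's r with Ndnf of each listed gene tested, over log2 CPM in the 7 deep libraries, with 1 row of points per list and a black bar at its median. Cell cycle genes sit together at 0.79 to 0.88, and all cardiac, interferon, hypoxia, mesothelium, erythroid and thymocyte genes lie below 0, while FGF genes spread over both sides.

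Markers of lung cells did not follow Ndnf as lists. Median r was -0.21 for alveolar type 1 cells, -0.22 for alveolar type 2 cells, -0.29 for alveolar fibroblasts, -0.22 for smooth muscle, 0.19 for vascular endothelium, -0.34 for lymphatic endothelium, -0.57 for mesothelium and 0.070 for airway epithelium. Myofibroblast genes had a median r of 0.37 but an r of -0.77 (rho -0.61) for their summed level, which the elastin gene Eln (r = -0.79) dominates, and that r was -0.16 without both lungs numbered 3604. The 9 neuron and Schwann cell genes summed to 166 to 303 CPM, most of it from Erbb3 (mean 183 CPM), and their median r was -0.46. The r of their summed level was -0.60 (rho -0.39), but 0.68 (rho 0.70, n = 5) without both lungs numbered 3604. The median fitted change of the 9 genes was 0.38 with TO 1 and without it. In the 8 libraries 7 were above 0 and 2 below, among the latter Erbb3 at -0.30 (SE 0.18).

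No epithelial list had a gene called. Among genes listed for alveolar type 1 cells the fitted change was -0.21 (SE 0.18) for the caveolin Cav1 and -0.15 (SE 0.17) for Lmo7. The list's median was -0.25, or -0.10 without TO 1 and 0.019 in the 6 libraries of the study's figure. Among genes listed for alveolar type 2 cells the fitted change was 0.015 (SE 0.30) for Sftpc, 0.27 (SE 0.36) for Slc34a2 and 0.19 (SE 0.34) for Sftpb. These are genes of surfactant protein and phosphate transport, and the list's median was 0.13, or 0.34 without TO 1. Airway epithelium had a median of 0.26, or 0.36 without TO 1, with Scgb3a2 at 0.44 (SE 0.28), Krt15 at -0.044 (SE 0.26) and Cyp2f2 at 0.19 (SE 0.23).

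Of the mesenchymal lists, alveolar fibroblast genes, led by Macf1, Mfap4 and Npnt, had a median of -0.11, which changed sign to 0.024 without TO 1. Myofibroblast genes had a median of -0.23, and -0.16 without TO 1. Smooth muscle genes, led by Mylk, Acta2 and Actn1, had 0.050, and 0.089 without TO 1. Among the abundant myofibroblast genes, Eln had a fitted change of -0.12 (SE 0.42), Tgfbi -0.60 (SE 0.19) and the growth factor receptor Pdgfra -0.30 (SE 0.16). Mesothelial genes, led by Msln, Upk3b and Upk1b, had a median of -0.035, and -0.0099 without TO 1. Vascular endothelium had -0.22, and -0.13 without TO 1, with Cdh5 at -0.28 (SE 0.18), Pecam1 at -0.24 (SE 0.18) and Kdr at -0.24 (SE 0.20), and lymphatic endothelium, led by Nrp2, Lyve1 and Flt4, had -0.036, which changed sign to 0.063 without TO 1. None of these genes passed the test over all genes.

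Lists of tissues outside the lung moved with single libraries. Median fitted changes were 2.92 for skeletal muscle, led by Myh8, Acta1 and Ckm, and 4.98 for thymocytes, led by Rag1, Lck and Cd8a, and they were 1.29 and 1.90 without TO 1. Hepatocyte genes, led by Alb, Afp and Ahsg, summed to 883 CPM in control 1 and 377 CPM in TO 4 against 2.60 to 96.6 CPM elsewhere. Erythroid genes, led by Hbb-bs, Hba-a1 and Hbb-bt, had a median of -0.34, which was -0.17 without TO 1, -0.037 without control 3 and 0.093 in the 6 libraries of the study's figure. The hepatocyte median was -0.20, and -0.14 without TO 1. It was 1.57 with the replicate number as a block and 3.31 without control 1, so its sign depended on the setting. Median r with Ndnf over the deep libraries was -0.18, -0.17, 0.081 and -0.30 for these 4 lists, and their part in its level was not tested.

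Among measures of the libraries themselves, the share of read pairs aligned to several places had an r of 0.61 (rho 0.71) with Ndnf over the 7 deep libraries. The share of pairs on no gene had an r of -0.51 (rho -0.43) and was highest in TO 3 and control 3, at 14.9% and 13.9%, against 10.1% to 13.2% in the other deep libraries. The number of read pairs on genes had an r of -0.29 (rho -0.29). The reads of Ndnf itself were split evenly between the strands in 7 libraries, whereas in TO 4 the first strand held 53.2% of them (95% binomial interval by the Wilson method 52.2% to 54.3%), an imbalance that 16.4% of 7991 genes with at least 1000 reads matched or exceeded there.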

How the data were processed

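The mRNA of 4 control and 4 TO whole lungs was sequenced as paired reads from NexteraXT libraries. The authors used STAR to place the reads on GRCm38, and they deposited the counts of read pairs on each gene as STAR gave them, neither scaled nor filtered, once regardless of strand and once per strand. The version of STAR and the annotation are not given in the sources used here. Of 55385 gene IDs, 54487 are identical to those of GENCODE M21, version included, and 55144 match without the version, and names, positions and lengths were taken from that release.

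The counts regardless of strand were used. Genes with at least 5 reads in 3 libraries or more were tested in R 4.3.3 with the quasi-likelihood test of edgeR 4.0.16 on TMM-scaled libraries, and p-values adjusted over all genes by Benjamini-Hochberg were called under 0.1, the study's threshold. CPM were computed with TMM factors, and log2 CPM with a prior count of 2. Alternatives were DESeq2 1.42.0, limma-voom (limma 3.58.1), other scaling and filters, single strands, the 7 libraries without TO 1, the 6 of the study's figure, each library left out, and blocks by replicate or specimen number. The analysis was tested on simulated data. Depth sets precision, so that 1 read pair in TO 1 was worth 3.45 CPM.

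Ndnf and the gene lists were chosen with earlier results of these data known. By rule the text names Ndnf, neighbouring protein-coding genes, the 8 genes with the highest and the 4 with the lowest r to it, and in each list the 3 most abundant members and any called. Some genes that this takes in are not reported here. Any further gene is said to be named after its values were seen.

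How alike same-numbered lungs were depended on the genes and libraries compared, and whether they are pairs was not tested. The correlation of their deviations from the group means was 0.052, 0.13, 0.16 and 0.071 for numbers 1 to 4 over all genes tested in 8 libraries. It was 0.46, 0.50 and 0.52 for numbers 2 to 4 in the 7 deep libraries over genes of at least 10 CPM. For control and TO lungs of unlike number it ran there from -0.46, control 4 with TO 2, to 0.36, control 1 with TO 4. Control 1 and TO 4 share the specimen number 3482. The fit without the block was kept. Blocked values are given for Ndnf, for the counts of called genes and for the hepatocyte median.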

Additional observations from a re-analysis of the deposited data

Results flagged for a closer look

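In 9 of 70 groups of 4 lungs examined, 1 lung stood apart from the other 3 by Dixon's test at 95%, and chance alone sets 1 apart in about 1 of 20 groups. Control 3 stood apart for Cdkn1a, at 53.4 CPM, for the summed myofibroblast genes, at 11946 CPM, and for neuron and Schwann cell genes, at 303 CPM. Among TO lungs, TO 3 stood apart for hypoxia genes, at 2795 CPM, and TO 4 for smooth muscle genes, at 1886 CPM. TO 1 stood apart for skeletal muscle genes, at 2757 CPM, for thymocyte genes, at 393 CPM, and for Tnip3, at 0 CPM, where 1 read pair is worth 3.45 CPM. Control 1 stood apart for hepatocyte genes, at 883 CPM.

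Within specimen number 3604 Ndnf was higher in the TO than in the control lung, with a log2 difference (TO minus control) of 0.076, while it was lower in every TO lung within the other numbers. This difference was not tested.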

How the results depend on the processing

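The difference of Ndnf between TO and control lungs kept its direction and moved by less than the spread between lungs under all 21 alternatives, and leaving out single lungs gave -0.81 to -0.49. The labels do not say that replicate numbers pair the lungs, and with the replicate block it was -0.56 (SE 0.19). The change of Tnip3 also moved by less than the spread, as did all list medians except 10 values of the skeletal muscle, thymocyte and hepatocyte lists. The median changed sign under some alternative in 11 of the 20 lists.

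Counts of called genes depended on tool and block. In place of 0 genes, DESeq2 called 7, edgeR with the replicate block 3, and edgeR with the block in 7 libraries 5, and leaving out single lungs gave 0 each time. Of the 8 genes most like Ndnf, 1 was among the 100 most like it with all 8 libraries, 3 on the first strand and 4 on the second, and all 8 were when any deep library was left out. Depth limits TO 1, with 47 read pairs on Ndnf. The specimen number block, the fit without both lungs numbered 3604 and the replicate block in 7 libraries were added after seeing the data.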
